A study of Mus musculus with 5 samples.

Results

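The 10 mouse genes followed here act in multiciliogenesis, and were measured by single-cell RNA sequencing of trachea: Foxj1, Rfx2, Rfx3, Mcidas, Ccno, Deup1, Cdc20b, Foxn4, Plk4 and Myb. They were listed by name, and each matched 1 of 30907 mouse features by symbol, so 10 of 10 were found. The study grafted basal cells made from mouse embryonic stem cells (iBCs) into injured tracheas, and the files hold unique molecular identifier (UMI) counts, one per captured transcript. The recipients were adult wild-type mice of strain 129 X1/S1. They received 2% polidocanol, a detergent that strips the airway lining, and the iBCs followed through the windpipe 5 hours later. Donor-derived cells were the Calcein Blue+/GFP+ fraction of a recipient trachea taken on day 40 or day 56, with 1 recipient per day (n = 2 libraries). Endogenous cells were the Calcein Blue+/GFP- fraction of the same 2 tracheas (n = 2 libraries). Control cells were Calcein Blue+ cells of 1 mouse of that strain with neither injury nor transplant (n = 1 library). Calcein Blue marks live cells. The sources used here do not say what drives GFP in the grafted cells. Day and recipient cannot be told apart. Values of a group with 2 libraries are given for day 40 first.

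A multiciliated airway cell carries many motile cilia, and each grows from a basal body, a modified centriole. Mcidas, a coactivator of E2F factors, switches the programme on, and with it the cyclin-like gene Ccno and the transcription factor genes Myb, Foxn4 and Foxj1. Deup1 builds the deuterosome, a body in which centrioles are made in large numbers, Cdc20b is needed to release them, and Plk4 is the kinase that starts centriole duplication in all cycling cells. Foxj1 and the winged-helix factors Rfx2 and Rfx3 then turn on the genes of the motile cilium. In the airway the deuterosomal stage is brief, and Mcidas, Ccno, Deup1, Cdc20b and Foxn4 are known from it.

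After filtering, 6554 cells remained: 1693 and 1731 donor-derived on day 40 and day 56, 1300 and 1219 endogenous, and 611 control cells. Median depths were 9999 to 12783 UMIs per cell, and any 2 libraries shared at most 2 barcodes. Cells were clustered with the 10 genes set aside and named from other markers, so that none of the 10 decided a class. Ciliated-like cells numbered 41 and 117 in the donor-derived libraries, against 231 and 194 for endogenous cells and 154 for the control. All 12 ciliated markers were seen in them in every library, at a summed 8639 and 12875 CPM (UMIs per 1000000 UMIs of the class) in donor-derived ciliated-like cells, against 11750 and 11512 CPM in endogenous ones and 12523 CPM in the control. Markers of secretory cells were seen there too, at 78860 and 31470 CPM in donor-derived cells, against 48080 and 60952 CPM in endogenous cells and 72490 CPM in the control. Their part in the results was not tested. Cluster 15 held 22 of the 41 and 112 of the 117 donor-derived ciliated-like cells and no other cell, while clusters 5 and 10 held all endogenous and control ones. Other classes split in a like way. Cluster 1 held 343 of 343 and 231 of 233 endogenous basal-like cells, but 14 of 723 and 3 of 1100 donor-derived ones. Cluster 2 held 235 of 235 and 171 of 175 endogenous secretory-like cells, but 3 of 489 and 3 of 451 donor-derived ones. The groups were therefore compared within each of these classes but largely across clusters.

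Ccno, Mcidas and Cdc20b are neighbours. On chromosome 13 of GRCm38, all on the plus strand, Ccno (112987802 to 112990777) ends 3067 bases before Mcidas (112993845 to 113000394) begins, and Cdc20b (113035111 to 113091195) begins 34716 bases further on. Dhx29, the next gene before Ccno in this row, ends 18369 bases upstream of it. The other genes lie apart: Foxj1 on chromosome 11 (116330704 to 116335399, minus strand), Rfx2 on 17 (56775897 to 56831013, minus), Rfx3 on 19 (27761721 to 28011166, minus), Deup1 on 9 (15559864 to 15627933, minus), Foxn4 on 5 (114254164 to 114273807, minus), Plk4 on 3 (40800019 to 40816883, plus) and Myb on 10 (21124935 to 21160984, minus).

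The 250 bases before the RefSeq start (build GRCm38.p6) were searched for 3 short motifs on both strands in the 9 genes with an entry. The RFX half-site GTTGCC was found in 4 of them, Ccno, Mcidas, Deup1 and Rfx2, against 10.4% of all 32851 promoters. The forkhead motif TGTTTAC was in 0 of the 9, against 3.17% of all, and the E2F motif GCGGGAAA or GCGCGAAA in 0, against 1.15% of all. A match is a description of letters and not of a bound site, and no match says only that these letters are not in this window. Ccno, Mcidas and Rfx2 are shown because the half-site lies upstream of the annotated gene, while that of Deup1 lies in bases inside it. In Ccno, Mcidas and Rfx2 it starts 219, 195 and 116 bases before the RefSeq start. Each sequence runs 5′ to 3′ on the gene's strand, with the half-site in capitals and bases inside the GENCODE gene left off.
Ccno (chr13:112987552-112987801, plus): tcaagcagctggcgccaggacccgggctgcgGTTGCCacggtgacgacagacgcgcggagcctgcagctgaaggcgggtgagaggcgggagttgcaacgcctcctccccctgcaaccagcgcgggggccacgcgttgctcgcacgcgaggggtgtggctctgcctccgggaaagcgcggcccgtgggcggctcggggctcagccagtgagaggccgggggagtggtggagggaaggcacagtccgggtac
Mcidas (chr13:112993618-112993844, plus): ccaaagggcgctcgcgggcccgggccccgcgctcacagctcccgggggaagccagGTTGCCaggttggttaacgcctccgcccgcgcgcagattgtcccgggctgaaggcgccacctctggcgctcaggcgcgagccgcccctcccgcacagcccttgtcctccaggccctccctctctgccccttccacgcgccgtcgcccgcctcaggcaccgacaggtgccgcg
Rfx2 (chr17:56831014-56831258, minus): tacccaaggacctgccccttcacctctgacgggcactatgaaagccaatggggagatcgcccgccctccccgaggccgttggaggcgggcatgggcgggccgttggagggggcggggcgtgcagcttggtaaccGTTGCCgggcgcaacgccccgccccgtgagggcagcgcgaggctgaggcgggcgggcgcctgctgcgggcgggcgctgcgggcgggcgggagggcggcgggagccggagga

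The factors that drive cilium genes were seen in ciliated-like cells of every origin. Foxj1, the master regulator of motile cilia, was at 478 and 586 CPM in donor-derived ciliated-like cells, against 603 and 589 CPM in endogenous ciliated-like cells and 587 CPM in the control. Foxj1 UMIs were present in 40 of 41 and 116 of 117 donor-derived cells, against 219 of 231 and 191 of 194 endogenous cells and 152 of 154 control cells. The day 40 donor-derived library was lowest and the other 4 lay close together. Rfx2 was at 33.0 and 47.2 CPM in donor-derived cells, against 43.9 and 35.3 CPM in endogenous cells and 38.8 CPM in the control, so the groups overlapped. Rfx3 was at 58.6 and 76.6 CPM in donor-derived cells, against 94.1 and 81.8 CPM in endogenous cells and 73.3 CPM in the control. Both donor-derived values of Rfx3 were below both endogenous ones, and the control lay among the donor-derived. Myb, a factor of the early programme, was at 204 and 197 CPM in donor-derived cells, against 143 and 101 CPM in endogenous cells and 197 CPM in the control. Here the donor-derived values were the higher, without overlap, and the control lay beside them. The share of all genes that separate as Rfx3 and Myb do was not counted. An exact two-sided permutation test gives such a separation p = 0.333 with 2 libraries against 2. Neither gene passed the edgeR test given below.

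The genes of the deuterosomal stage were much sparser. Ccno was at 35.4 and 35.5 CPM (29 and 52 UMIs) in donor-derived ciliated-like cells, against 3.84 and 3.93 CPM (12 and 13 UMIs) in endogenous ones and 21.0 CPM (34 UMIs) in the control. Plk4 was at 25.6 and 23.9 CPM in donor-derived cells, against 2.56 and 3.02 CPM in endogenous cells and 6.78 CPM in the control. Neither gene overlapped between donor-derived and endogenous cells, but the share of all genes without overlap was not counted. With 2 libraries against 2 such a separation has an exact two-sided permutation p of 0.333. Deup1 was at 73.3 and 33.5 CPM in donor-derived cells, against 34.3 and 34.1 CPM in endogenous cells and 49.9 CPM in the control. The day 40 donor-derived library was highest, and the day 56 one lay beside the endogenous values. Mcidas had 11 and 4 UMIs in donor-derived, 1 and 1 in endogenous and 3 in control ciliated-like cells. Cdc20b had 3 and 4 UMIs in donor-derived, 1 and 0 in endogenous and 7 in control cells, and Foxn4 had 7 and 2 UMIs in donor-derived, 1 and 0 in endogenous and 1 in control cells. The 0 of the day 56 endogenous cells allows up to 0.906 CPM for either gene at 3 counts. Intervals and such limits cover counting error only.

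**Figure D1:**
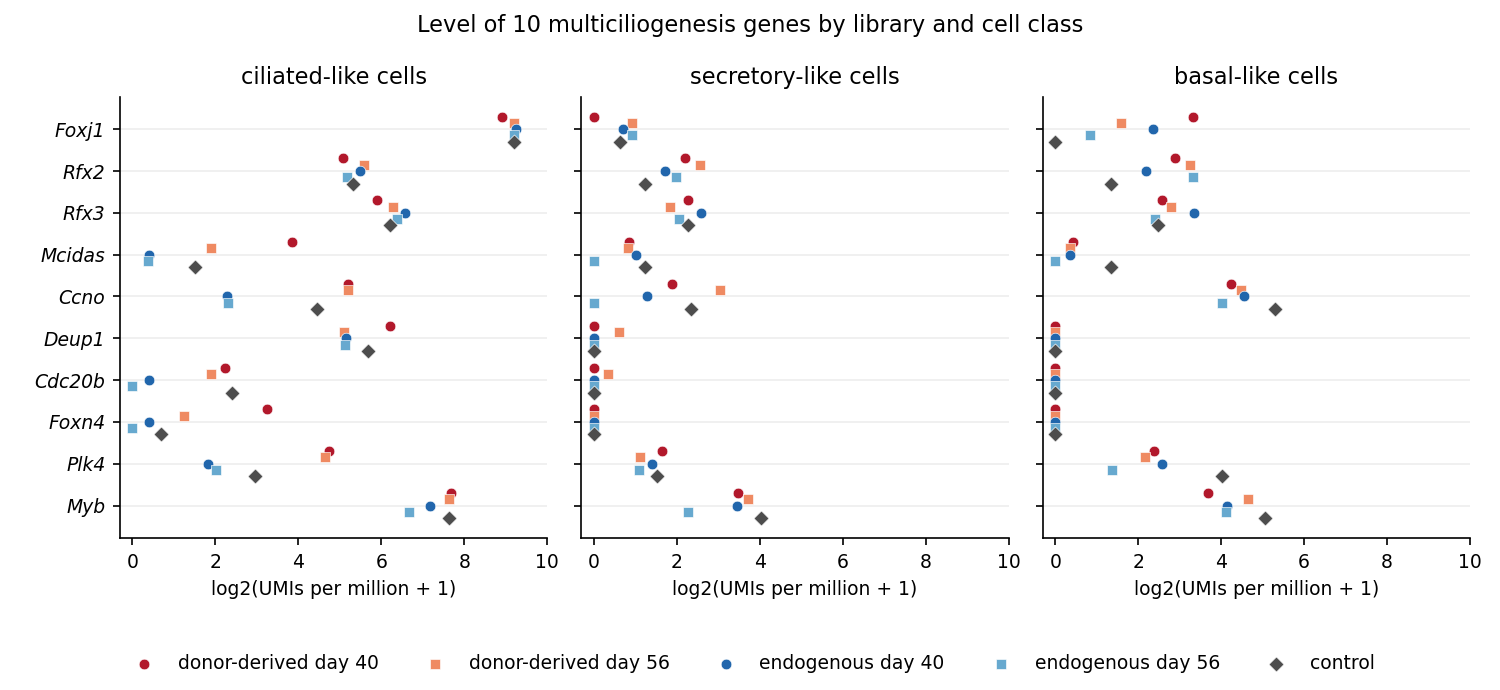
Level of each gene as log2(CPM + 1) on the x axis in ciliated-like, secretory-like and basal-like cells, with 1 point per library. Foxj1, Rfx2 and Rfx3 are high in the ciliated-like panel and low in the others, whereas Ccno is seen in basal-like cells of every library too.

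Donor-derived and endogenous ciliated-like cells of the same tracheas were then compared. Of the 10 genes 7 had enough counts for edgeR's quasi-likelihood test, and 2 were called, Ccno and Plk4. Both were higher in donor-derived cells, against 1.92% of all 10513 genes tested called higher (Benjamini-Hochberg adjusted p under 0.05). Both passed the filter on low counts only through the donor-derived libraries, where they were high, so the count of 2 is partly set by that filter. With no such filter 3 of the 10 were called, all higher, among 791 of 16543 genes. Ccno had a log2 fold change of 3.08 ± 0.30 (SE, adjusted p = 0.00187) and Plk4 of 3.02 ± 0.36 (adjusted p = 0.00353). Plk4 lost the call without the day 40 endogenous library (adjusted p = 0.0636). Myb was at 0.62 ± 0.20 (adjusted p = 0.134), Deup1 at 0.47 ± 0.35 (0.515), Foxj1 at -0.26 ± 0.19 (0.488), Rfx2 at -0.04 ± 0.23 (0.949) and Rfx3 at -0.46 ± 0.19 (0.224), and none of these 5 passed the test. Leaving out the day 56 donor-derived library left 1 library in that group. The log2 fold changes were then 1.02 for Deup1, 0.66 for Myb, -0.40 for Foxj1 and -0.66 for Rfx3. In the day 40 library that remained, 1 ciliated-like cell held 41 of 60 Deup1 UMIs and 71 of 167 Myb UMIs.

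Within ciliated-like cells, most Ccno and Plk4 counts came from 1 cell in each donor-derived library. That cell of the day 40 library held 24 of the 29 Ccno UMIs and all 21 Plk4 UMIs of its ciliated-like cells, and that of the day 56 library 37 of 52 and 26 of 35. When cells with UMIs of 3 or more of Mcidas, Ccno, Deup1, Cdc20b and Foxn4 were left out, a step chosen after seeing the data that uses Ccno and Deup1 themselves, 0 of 6 members tested were called, against 3.17% of all genes (3 of the 6 had an unadjusted p under 0.05 in the edgeR test). Ccno then stood at 6.32 and 10.6 CPM in donor-derived cells, against 3.89 and 3.93 CPM in endogenous cells and 5.09 CPM in the control, with a log2 fold change of 1.10 ± 0.46 (edgeR adjusted p = 0.251). Plk4 stood at 0 and 6.36 CPM in donor-derived cells, against 2.59 and 3.02 CPM in endogenous cells and 1.27 CPM in the control and was no longer tested. Deup1 turned round, to 24.0 and 19.8 CPM in donor-derived cells, against 33.7 and 34.1 CPM in endogenous cells (-0.74 ± 0.23, edgeR adjusted p = 0.146), with 39.5 CPM in the control. Myb then had a log2 fold change of 0.24 ± 0.23 (edgeR adjusted p = 0.636), at 121 and 178 CPM in donor-derived cells, against an overlapping 141 and 101 CPM in endogenous cells.

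**Figure D2:**
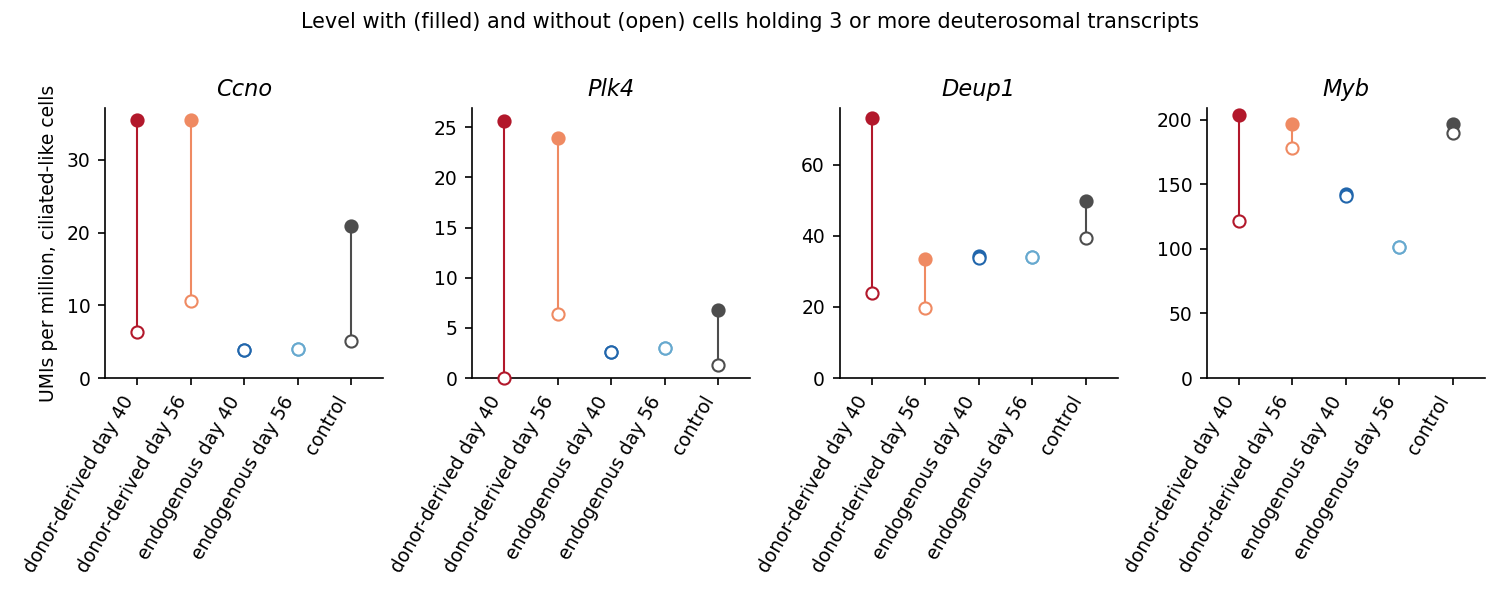
CPM of Ccno, Plk4, Deup1 and Myb in the ciliated-like cells of each library, with (filled) and without (open) the cells that hold 3 or more of the 5 deuterosomal transcripts. The donor-derived levels of Ccno drop to 6.32 and 10.6 CPM without 1 cell each, and the endogenous levels hardly move.

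The 8 cells with 3 or more of these 5 transcripts, of 6554, held all 17 UMIs of Cdc20b and all 11 of Foxn4. They also held 26 of 66 UMIs of Mcidas and 92 of 425 UMIs of Deup1. By library they were 1 and 2 donor-derived, 2 and 0 endogenous and 3 control cells, and 5 of the 8 were ciliated-like. All 5 transcripts were seen together in 3 cells, 1 of each donor-derived library and 1 of the control. The day 40 donor-derived cell had 11 UMIs of Mcidas, 24 of Ccno, 41 of Deup1, 3 of Cdc20b, 7 of Foxn4, 21 of Plk4 and 71 of Myb among 27698 UMIs. The day 56 donor-derived cell had 3, 37, 21, 4, 2, 26 and 36 UMIs of these genes, in the same order, among 47003. The control cell had 3, 25, 14, 3, 1, 9 and 19 among 19889. These 3 cells also held 33, 33 and 32 UMIs of Foxj1 and the axonemal dynein transcript Dnah5, at 21, 8 and 3 UMIs. Top2a, a topoisomerase of dividing cells, had 16 and 18 UMIs in the 2 donor-derived cells and 0 in the control cell.

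Another 3 cells held Mcidas and Ccno together with Deup1 but no Dnah5. They were a secretory-like donor-derived cell of day 56 with 20 UMIs of Ccno and 8253 of the secretory product Scgb1a1, and 2 cells of unnamed cluster 6, 1 of the day 40 endogenous library with 7 and 1 of the control with 12 UMIs of Ccno. Foxj1 stood at 3, 8 and 10 UMIs in them and Myb at 19, 12 and 9. The secretory-like one lay in cluster 2, which held 3 donor-derived cells of each day, against 235 and 171 endogenous and 242 control cells. The remaining 2 of the 8, 1 endogenous of day 40 and 1 control, held Deup1 and Cdc20b with abundant Tppp3, a tubulin-binding protein of mature cilia (121 and 53 UMIs), and no Mcidas. The median ciliated-like cell had 17823 and 11578 UMIs in the donor-derived libraries, 12412 UMIs in the day 40 endogenous library and 8760.5 UMIs in the control, and 7 of the 8 lay above the median of their class and library. Thinned to 5000 UMIs each, 3 cells of all kept 3 or more of the transcripts. Of the 48 barcodes called as doublets 0 had 3 or more.

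**Figure D3:**
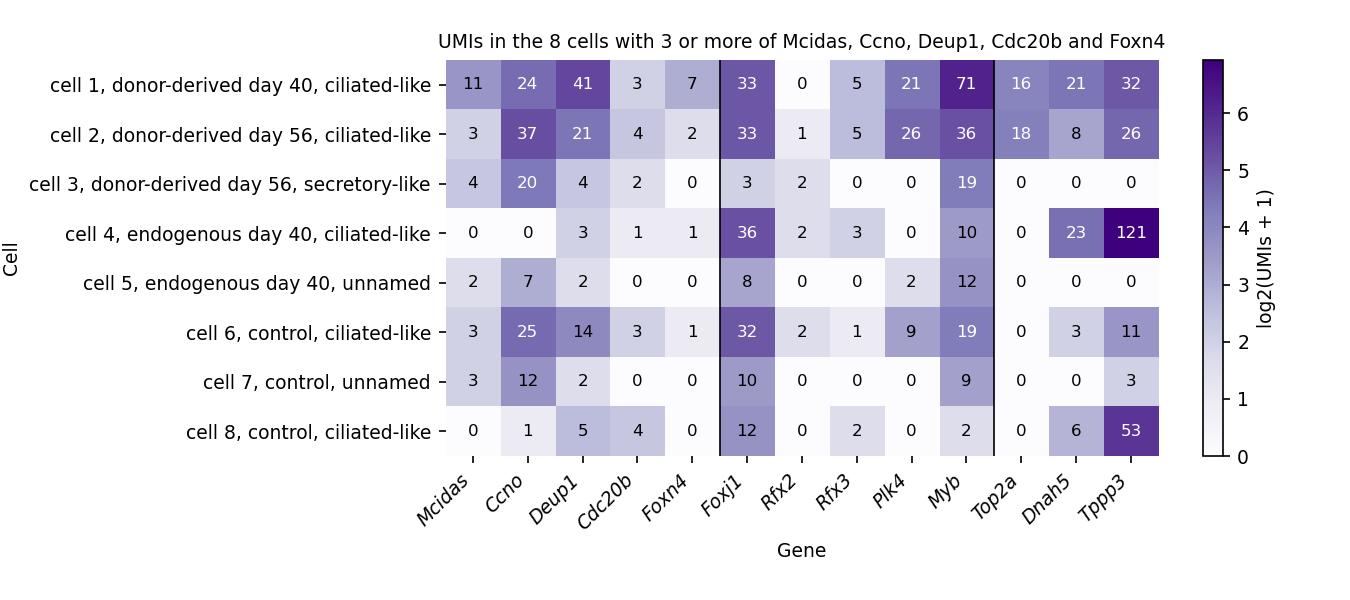
UMIs per cell in the 8 cells with 3 or more of the 5 deuterosomal transcripts, which are left of the first line. The other members stand between the lines and Top2a, Dnah5 and Tppp3 right of the second, and 3 cells hold all 5 transcripts together with 9 to 26 UMIs of Plk4.

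Ccno and Deup1, both used as markers of the deuterosomal stage, were spread over different classes. Deup1 UMIs fell in 243 cells, of which 234 (96.3%) were ciliated-like and 236 held Foxj1. Ccno UMIs fell in 497 cells, of which 49 (9.86%) were ciliated-like, and 354 were basal-like. Both were held by 21 cells. Ccno was seen in 8.64% of epithelial cells with Deup1 and in 8.34% of those without, and within ciliated-like cells in 7.69% and 6.16%, at median depths of 14020.5 and 10925 UMIs. The 9 cells with Deup1 outside the ciliated-like class included 5 tuft-like cells, 4 of them among the 13 of the control, where Foxj1 was at 287 CPM in 6 cells. Of those 13 cells 6 were in cluster 24, which also scored for ciliated markers (2.26, against 4.62 for tuft markers). Within ciliated-like cells Deup1 was seen in 13 of 41 (31.7%, exact 95% interval 18.1 to 48.1) and 20 of 117 (17.1%, 10.8 to 25.2) donor-derived cells. It was seen in 78 of 231 (33.8%, 27.7 to 40.3) and 78 of 194 (40.2%, 33.2 to 47.5) endogenous and 45 of 154 (29.2%, 22.2 to 37.1) control cells. Thinned to 5000 UMIs, the shares were 17.1% and 8.11% in donor-derived, 18.0% and 16.8% in endogenous and 19.5% in control cells. The day 56 donor-derived library was lowest either way. Deup1 was at 1 UMI in 173 of its 243 cells (71.2%).

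Ccno was also seen in many basal-like cells, the stem cells of the airway. It was at 18.0 and 21.2 CPM in donor-derived basal-like cells, against 22.4 and 15.3 CPM in endogenous basal-like cells and 38.4 CPM in the control. UMIs were seen in 103 of 723 (14.2%) and 152 of 1100 (13.8%) donor-derived, 55 of 343 (16.0%) and 30 of 233 (12.9%) endogenous and 14 of 68 (20.6%) control cells. Donor-derived and endogenous values overlapped, and the control interval of 24.9 to 56.7 CPM lay on 25 UMIs. In the non-epithelial cells 3 of 642 (0.467%) had a Ccno UMI. The 2 endogenous libraries hold most of these cells, at median depths of 8201 and 8249 UMIs, against 10052 and 10820 UMIs in their basal-like cells. The donor-derived libraries hold 11 and 1 of them and the control 2, so this share says little on those libraries. Deup1 was seen in 0 of 2467 basal-like cells (exact 95% upper limit 0.149%), and Mcidas in 8. Among epithelial cells with Ccno 12 of 494 (2.43%) held Mcidas, against 0.609% of those without. Secretory-like cells had 2.66 and 7.23 CPM of Ccno in the donor-derived, 1.44 and 0 CPM in the endogenous and 4.07 CPM in the control libraries, and 1 day 56 donor-derived cell held 20 of the 56 UMIs behind the highest value. The log2 fold change was 2.28 ± 1.12 (edgeR adjusted p = 0.274), and edgeR called Ccno without the day 40 donor-derived library (2.88, adjusted p = 0.0237) and with the 10 genes kept in clustering (2.95, adjusted p = 0.0256).

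**Figure D4:**
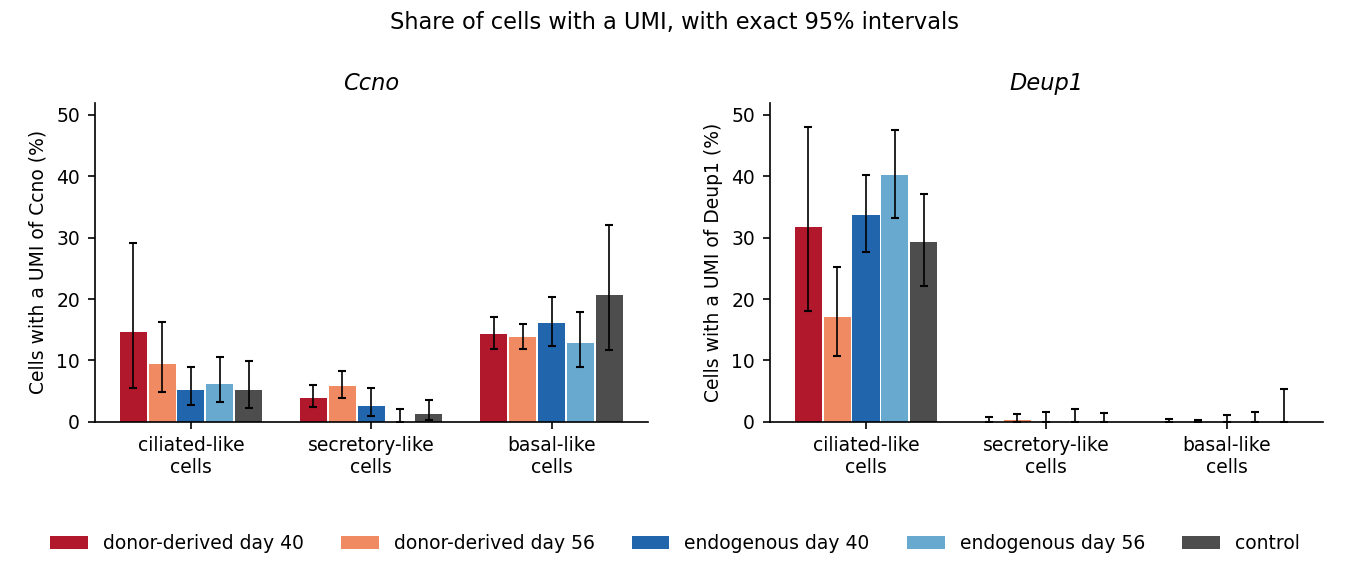
Percentage of cells with a UMI of Ccno (left) and Deup1 (right) in 3 classes, 1 bar per library, with exact 95% intervals for counting error. Ccno is seen in 12.9% to 20.6% of basal-like cells and Deup1 almost only in ciliated-like cells.

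Counting epithelial cells with a UMI of either Ccno or Deup1 mixed these sources. The count was 155 of 1682 (9.22%, exact 95% interval 7.88 to 10.7) and 205 of 1730 (11.8%, 10.4 to 13.5) in donor-derived epithelium, 156 of 1086 (14.4%, 12.3 to 16.6) and 120 of 805 (14.9%, 12.5 to 17.6) in endogenous and 80 of 609 (13.1%, 10.6 to 16.1) in control epithelium. Both donor-derived shares were below both endogenous ones. With 2 libraries against 2 no exact permutation test can reach 0.05, and the smallest two-sided p is 0.333. Basal-like cells made up 103 of the 155 and 152 of the 205 positive donor-derived cells, against 55 of the 156 and 30 of the 120 endogenous ones. Ciliated-like cells made up 17 and 26 in donor-derived and 86 and 86 in endogenous epithelium. Thinned to 5000 UMIs, the shares were 4.17% and 7.43% in donor-derived, 8.27% and 6.66% in endogenous and 7.72% in control epithelium, and donor-derived and endogenous shares then overlapped. Cells with both genes were 2 and 6 donor-derived, 5 and 4 endogenous and 4 control cells.

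Set against the ciliated-like cells present, positive cells were 378 and 175 per 100 in donor-derived, 67.5 and 61.9 in endogenous and 51.9 in control epithelium. The donor-derived ratio was higher by a factor of 4.28 between group means, without overlap, and 4.27 after thinning. Most donor-derived cells counted here were the Ccno-positive basal-like ones, and the ciliated-like share of the epithelium was 2.44% and 6.76% for donor-derived cells, against 21.3% and 24.1% for endogenous cells and 25.3% for the control. With cells holding both genes the ratio was 4.88 and 5.13 per 100 in donor-derived, 2.16 and 2.06 in endogenous and 2.60 in control epithelium, on the cell counts given above. The GFP gate separates donor-derived from endogenous cells and can set such shares, and the control had no such gate.

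**Figure D5:**
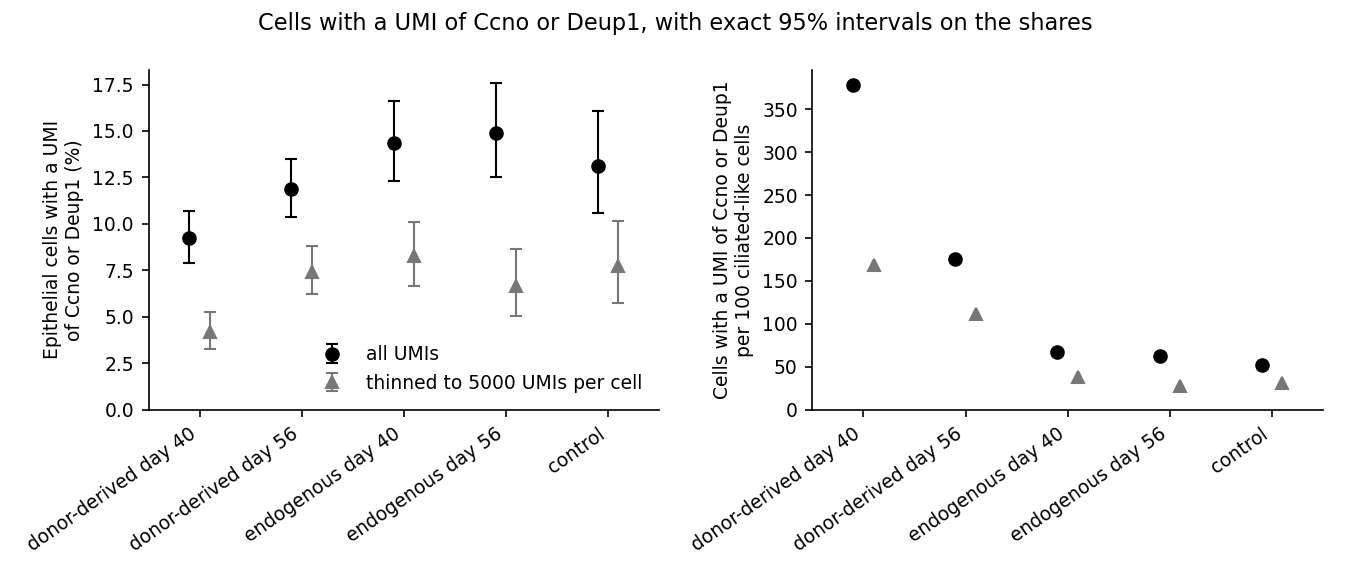
Epithelial cells with a UMI of Ccno or Deup1 per library as a percentage of epithelial cells (left, with exact 95% intervals) and per 100 ciliated-like cells (right), before and after thinning each cell to 5000 UMIs. The donor-derived libraries are lowest on the left before thinning and highest on the right in both.

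Over the whole epithelium Foxj1, Rfx3 and Deup1 were lower in donor-derived cells. Of 8 members tested 3 fell, against 9.62% of all 13736 genes tested called lower by edgeR. Foxj1 was at 19.6 and 41.8 CPM in donor-derived epithelium, against 126 and 147 CPM in endogenous epithelium and 138 CPM in the control (log2 fold change -2.27 ± 0.42, adjusted p = 0.0414). Deup1 was at 2.42 and 2.49 CPM in donor-derived epithelium, against 7.14 and 8.53 CPM in endogenous epithelium and 11.9 CPM in the control (-1.79 ± 0.24, adjusted p = 0.0225). Rfx3 was at 5.48 and 9.60 CPM in donor-derived epithelium, against 25.3 and 24.1 CPM in endogenous epithelium and 20.9 CPM in the control (-1.83 ± 0.32, adjusted p = 0.0362). None of the 3 overlapped between donor-derived and endogenous libraries, but the share of all genes without overlap was not counted. With 2 libraries against 2 such a separation has an exact two-sided permutation p of 0.333. In such sums fewer cells of a type and less RNA per cell cannot be told apart. The share of ciliated-like cells was also lower in donor-derived epithelium. Within ciliated-like cells none of the 3 passed the test, with Foxj1 and Rfx3 fitted lower and Deup1 higher. A failed test with 2 libraries against 2 does not show an equal level. What lay behind the lower sums was not tested. Without the cells holding 3 or more deuterosomal transcripts Deup1 was at -2.98 ± 0.38 (edgeR adjusted p = 0.0198). That rule uses Deup1 itself and was chosen after seeing the data. The cells it removes held 41 of 60 and 21 of 49 Deup1 UMIs of donor-derived ciliated-like cells. The step thus lowers the donor-derived level by itself, and its p-value adds no support. Without the day 40 or the day 56 endogenous library edgeR called 0 genes of all (2288 and 2235 had an unadjusted p under 0.05), and the adjusted p-values of these 3 ran between 0.178 and 0.244. Ccno (0.97 ± 0.45, adjusted p = 0.23), Plk4 (0.67 ± 0.36, 0.28), Mcidas (0.56 ± 0.91, 0.722), Myb (-0.80 ± 0.31, 0.172) and Rfx2 (-0.70 ± 0.26, 0.149) did not pass.

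In secretory-like cells 0 of 5 members tested were called by edgeR or by DESeq2, against 16.2% of all genes by edgeR, and 0 had an unadjusted p under 0.05 in either. Rfx2 was at 3.60 and 4.91 CPM in donor-derived cells, against 2.27 and 2.93 CPM in endogenous cells and 1.36 CPM in the control. Rfx3 was at 3.86 and 2.58 CPM in donor-derived cells, against 4.95 and 3.15 CPM in endogenous cells and 3.79 CPM in the control. TMM scaling shifts donor-derived levels in this class by 0.43 on the log2 scale relative to these plain CPM, and by at most 0.12 in the others. In basal-like cells 0 of 6 were called by edgeR, by DESeq2 or with the recipient as a block, against 11.2% of all genes by edgeR, and 0 had an unadjusted p under 0.05 by edgeR or DESeq2. The largest fitted change among the 6 was that of Foxj1, at 9.03 and 2.02 CPM in donor-derived basal-like cells, against 4.14 and 0.786 CPM in endogenous ones (log2 fold change 0.90 ± 1.06, edgeR adjusted p = 0.715), with 0 UMIs in the 68 control cells. Its UMIs fell in 51 of 723 basal-like cells of the day 40 donor-derived library and 20 of 1100 of the day 56 one. Cluster 4, a basal-like cluster led by interferon-response genes such as Cxcl10 and Gbp2b, held 37 Foxj1-positive cells of 435.

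Plk4 and Myb were also seen well outside ciliated-like cells. Plk4 was most frequent in unnamed cluster 20, led by Cenpf, Top2a and Mki67, with a UMI in 59 of 92 cells (64.1%, exact 95% interval 53.5 to 73.9). Its level there was 57.8 and 101 CPM for donor-derived cells, against 44.1 and 41.9 CPM in endogenous cells and 21.4 CPM in the control, the last on 4 cells. Non-epithelial cells, nearly all of them endogenous, held Plk4 in 73 of 642. Myb was at 185 CPM in the 66 tuft-like cells, with a UMI in 43 of them, and at 151 CPM in all 737 ciliated-like cells. It was at 18.4 CPM in basal-like and 10.3 CPM in secretory-like cells.

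Against the single control library, ciliated-like cells were compared for genes with a mean of 20 CPM or more. Of the donor-derived comparison 6 members had such a mean and 0 were at least 2-fold apart in both recipients, against 4.91% of 6419 genes. Of the endogenous comparison 5 had such a mean and 0 were apart, against 1.28% of 6233 genes. Ratios of donor-derived to control cells were 1.69 and 1.70 for Ccno, 1.47 and 0.671 for Deup1 and 0.813 and 0.999 for Foxj1. Ratios of endogenous to control cells were 0.686 and 0.684 for Deup1 and 0.726 and 0.516 for Myb. Plk4 was under that mean in both comparisons, with ratios of 3.78 and 3.53 for donor-derived to control cells and 0.378 and 0.446 for endogenous to control cells, on 11 control UMIs of which 9 came from 1 cell. Ccno was under that mean in the second comparison, at 3.84 and 3.93 CPM in endogenous cells, against 21.0 CPM in the control, which are ratios of 0.183 and 0.187, and 26 of the control's 34 UMIs came from 2 cells. Both comparisons share the control and have no test.

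Partners of the 10 genes were counted from lists chosen with earlier results of these data known. Of 10 upstream partners tested in ciliated-like cells 1 fell and 0 rose (median log2 fold change 0.18, against 0.01 over all genes tested), where 1.93% of all genes tested were called lower and 1.92% higher. Gmnc, the geminin-like factor that acts above Mcidas, was the one that fell, at 17.1 and 7.52 CPM in donor-derived cells, against 41.3 and 41.4 CPM in endogenous cells and 22.8 CPM in the control (-1.98 ± 0.32, edgeR adjusted p = 0.0148). It also fell in secretory-like cells, at 1.73 and 2.97 CPM in donor-derived cells, against 9.28 and 12.4 CPM in endogenous cells and 11.4 CPM in the control (-2.63 ± 0.36, adjusted p = 0.00115). Without the 3-transcript cells Gmnc still fell in ciliated-like cells (-1.91 ± 0.33, adjusted p = 0.0222). In secretory-like cells 1 of 8 partners rose and 2 fell, where 16.2% of all genes were called. Besides Gmnc these were Tfdp2, an E2F partner (0.69 ± 0.19, edgeR adjusted p = 0.0359), and geminin, Gmnn (-0.56 ± 0.15, adjusted p = 0.0302). Gmnn stood at 69.2 and 76.3 CPM in donor-derived secretory-like cells, against 77.6 and 80.2 CPM in endogenous ones and 39.6 CPM in the control, beside the TMM shift of 0.43 in this class. In basal-like cells 1 of 8 partners, Gmnn, was called (0.86 ± 0.21, adjusted p = 0.041), near the 11.2% of all genes called there.

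Of 23 genes of centriole assembly tested in ciliated-like cells 2 rose and 0 fell (median 0.22), where 1.92% of all genes tested were called higher. Stil, which works with Plk4 to start a centriole, was at 9.77 and 6.84 CPM in donor-derived cells, against 0 and 0.302 CPM in endogenous cells and 3.08 CPM in the control (5.15 ± 0.91, edgeR adjusted p = 0.0182, a fit that depends on the prior count). Cep295, needed for centriole growth, was at 28.1 and 23.9 CPM in donor-derived cells, against 8.65 and 10.9 CPM in endogenous cells and 11.1 CPM in the control (1.29 ± 0.29, adjusted p = 0.0452). The 3-transcript cells held 7 of 8 and 5 of 10 UMIs of Stil and 15 of 23 and 11 of 35 of Cep295 in the donor-derived libraries. Without them 0 of 22 genes of the list were called, where 3.17% of all genes were (Cep295 0.45 ± 0.36, edgeR adjusted p = 0.556). Of 16 cell cycle genes only 4 were tested, and 3 rose, beside the same 1.92% of all genes. They were Top2a, Cdc20 and Cdk1, at 22.0 and 19.8, 6.11 and 16.4, and 9.77 and 23.9 CPM in donor-derived cells. Endogenous cells had at most 3.20 CPM of each. These 3 and Stil passed the filter on low counts only through the donor-derived libraries, where they were high. The count of 3 among 4 is thus partly set by the filter. The 3-transcript cells held 16 of 18 and 18 of 29 donor-derived UMIs of Top2a, and without them 1 gene of this list was tested and 0 called.

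Of 17 motile cilium genes tested in ciliated-like cells 4 fell and 0 rose (median -0.53), where 1.93% of all genes tested were called lower. They were Ccdc39, a ruler of axonemal spacing, at 153 and 118 CPM in donor-derived against 260 and 290 CPM in endogenous cells (-1.13 ± 0.19, edgeR adjusted p = 0.0166), and Cfap53, Cfap43 and Ccdc113 at -1.19, -1.05 and -0.79 (adjusted p = 0.0252, 0.0227 and 0.0389). Ccdc113, Tppp3, Dynlrb2, Rsph1, Dnah5, Cdhr3 and Tekt1 of this list are also among the 12 ciliated markers used to name the class. Without the 3-transcript cells 3 of 17 fell, where 155 of all 10449 genes tested were called lower. The largest fitted changes of the list were not called and were named after their values were seen. Drc1, of the dynein regulatory complex, was at 133 and 4.10 CPM in donor-derived cells, against 289 and 254 CPM in endogenous cells and 303 CPM in the control (-2.21 ± 1.66, edgeR adjusted p = 0.595). Tekt1, a tektin of the axoneme and one of the 12 ciliated markers, was at 160.0 and 2.73 CPM in donor-derived cells, against 306 and 307 CPM in endogenous cells and 306 CPM in the control (-2.12 ± 1.82, adjusted p = 0.641). The day 56 donor-derived library was lowest in both, with a UMI of Drc1 in 3 and of Tekt1 in 2 of its 117 ciliated-like cells. In the day 40 donor-derived library they were seen in 18 and 19 of 41, against 209 and 211 of 231 endogenous cells of that day. Clusters 5 and 10, which hold the endogenous cells, held 11 and 8 of those 41 cells, and 0 and 5 of the 117. The cluster that holds most donor-derived ciliated-like cells holds none of the endogenous ones, as given above.

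Genes most like Foxj1 and Deup1 were sought over 48 sums of library and cluster, by the Pearson correlation of log2(CPM + 1) among 6003 genes. The sums share libraries, depth and ciliated clusters, so the values are a description. Foxj1 was most like Mak, Cfap126, Ak7, Rsph1, Aoc1 and Ccdc187 (r = 0.939 to 0.953), and Deup1 most like Ccdc187, Spag17, Kcnmb2, Dnah1, Rp1 and Ttc21a (r = 0.967 to 0.978). Among the 10 genes, Deup1 and Foxj1 had r = 0.913, Deup1 and Rfx3 0.87, and Deup1 and Ccno 0.394, while Ccno was closest to Mcidas at 0.602.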

How the data were processed

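Transcripts were measured in 5 droplet libraries (10x Chromium). Values are UMI counts, deposited as whole numbers for each gene and cell barcode against a joint mouse and human reference, per the file headers. The submitters' processing notes name the builds GRCm38 and GRCh38 and, as tools, Seurat, STARsolo and Cell Ranger, whose order and settings are not given in the sources used here. The 10 genes and all lists were chosen with earlier results of these data known.

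Left out were barcodes with more than 10% human UMIs (192, all in the control library), those with over 20% mitochondrial UMIs or under 500 genes (38), and the barcodes that Scrublet marked as doublets (48, 0.727%). Cells were clustered with scanpy 1.11.5 and leidenalg 0.10.2 in Python 3.11.15 on 2000 variable genes without the 10, with 30 components, 15 neighbours and resolution 1, which gave 25 clusters. A class name needed 3 or more detected markers and no class with more markers among the 10 leading genes. It also needed a score of 0.25 with a marker among those genes, or a score of 0.5 that was at least 2-fold that of the next class. Goblet markers were joined to the secretory list. An unnamed cluster counted as epithelial where over 50% of its cells held Epcam and under 50% Ptprc.

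Levels are plain CPM, the UMIs of a gene per 1000000 UMIs of a class's summed cells. Raw counts per library and class were tested with edgeR 4.0.16 in R 4.3.3: TMM scaling, filterByExpr, the robust quasi-likelihood F-test, and Benjamini-Hochberg adjustment over all genes with a threshold of 0.05. A class needed 20 cells in a library. The test was also run on simulated counts, in which only well-counted genes were changed. Those counts hold no genes carried by single cells, so they say nothing on such genes. The SE is the size of the log2 fold change over the square root of F, an approximation that for sparse genes may be smaller than counting error. Same-day libraries share 1 recipient by design, which pairs a donor-derived with an endogenous one. Their deviations from the group means correlated at -0.04 in ciliated-like, 0.02 in secretory-like, 0.22 in basal-like and 0.13 in all epithelial cells. The fit has no recipient block, and the spread behind its p-values is that between the 2 libraries of a group, which also differ in day. The control is a single library without a test. Shares have exact Clopper-Pearson and levels exact Poisson 95% intervals. Alternatives were DESeq2 1.42.0, RLE scaling, no filter on low counts, the block, each library left out, resolutions 0.5 and 2, the 10 genes kept in clustering, doublets kept, other rules for positive cells and, added after seeing the data, leaving out cells with 3 or more deuterosomal transcripts. Genes beyond the 10 were named by rule: up to 4 called per list and class by size of change, and the 6 most like Foxj1 and Deup1. Promoter sequences are from RefSeq (9 of 10 genes matched) and gene coordinates from the GENCODE annotation of GRCm38.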

Additional observations from a re-analysis of the deposited data

How the results depend on the processing

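Of 291 alternative values of the members' log2 fold changes, 246 kept their direction and side of the threshold, 9 lost and 9 gained the call and 27 changed sign. Leaving out 1 library at a time, edgeR called 50 to 2110 genes in ciliated-like, 405 to 2438 in secretory-like, 261 to 2141 in basal-like and 0 to 4851 in all epithelial cells, the fewest without an endogenous library. Without the filter on low counts it called 791 genes in ciliated-like and 2451 in basal-like cells, where Mcidas was called in ciliated-like cells (4.20, adjusted p = 0.00985) and Foxj1 lost its call in all epithelial cells (adjusted p = 0.0992). With the recipient as a block, the pairing given by the design, it called 2019 genes in basal-like cells, and no member's call changed. Leaving out the 3-transcript cells turned Rfx2 to 0.018 and Deup1 to -0.74 in ciliated-like cells. Resolution 2 turned Myb to -0.42 in secretory-like cells, and resolution 0.5, at which no secretory-like fit could be made, turned Ccno to 0.41 and Plk4 to -0.057 in basal-like cells. Myb in basal-like cells was 0.0011 with RLE scaling, 0.027 without the filter and 0.026 with the 10 genes kept in clustering. With 1 library left out, signs changed for Rfx2 (-0.34 to 0.13) and Deup1 (-0.15 to 1.02) in ciliated-like cells, for Rfx2 (-0.055 to 0.56), Plk4 (-0.45 to 0.081) and Myb (-0.26 to 1.06) in secretory-like cells, for Foxj1 (-0.52 to 2.66), Rfx2 (-0.38 to 0.93), Rfx3 (-0.85 to 0.24), Ccno (-0.31 to 0.25), Plk4 (-0.50 to 1.17) and Myb (-0.60 to 0.41) in basal-like cells, and for Mcidas (-0.25 to 3.11) in all epithelial cells. In these fits the lone library is assumed to vary like the other group. The share of epithelial cells with Ccno or Deup1 differed by -4.10 percentage points, by -0.77 when 2 UMIs were asked for, -0.25 when both genes were and -1.67 after thinning, and the ratio per 100 ciliated-like cells of 4.28 became 2.37 with both genes. The cause was not tested. Most positive cells hold 1 UMI, and ciliated-like cells number 41 in the smallest library, so levels of Mcidas, Cdc20b and Foxn4 rest on single cells.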
